A study of Mus musculus with 15 samples.

Results

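The genes described here flank Tmem135 on mouse chromosome 7. They are the protein-coding genes that start within 10 Mb of Tmem135, from 79139714 to 99404222 of GRCm38, and that had at least 10 counts in all over the 15 libraries. Tmem135 and 7 other genes of the window were left out by name, among them Tyr, Idh2 and Me3. This left 120 linked genes out of the 55421 genes listed in the deposited files. A further 38 protein-coding genes of the window were under the count minimum, and 33 of them are olfactory or vomeronasal receptor genes. Position, annotation, the count minimum and the names left out chose the linked genes. No change between genotypes entered the rule, but it was set with earlier results of these data known.

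Posterior eyecups, which hold the pigment epithelium, choroid and sclera after removal of the neural retina, were collected from mice aged 2.5 months on the C57BL/6J background. There were 4 WT mice, 6 mice heterozygous for the FUN025 mutation of Tmem135 (FUN025/+) and 5 homozygous mice (FUN025/FUN025), of both sexes, with no label that gives the sex of a library. The paper lists as many males as females in WT, more males in FUN025/+ and more females in FUN025/FUN025, so sex was not balanced between genotypes. The eyecups of 1 mouse were pooled into 1 library, so n counts mice, and the mutation is carried in the germline and so in all cells. The comparison asks whether genes linked to the mutated gene change more than the rest of chromosome 7.

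Neighbouring genes on a chromosome are inherited together, so a mutant line differs from its controls not only at the mutated gene but possibly also in DNA that was carried along with it. Neighbours can also share regulatory DNA, as when a pair of genes is read in opposite directions from start sites that face away from each other. The window around Tmem135 holds genes with known roles in the eye. Among them are Fzd4, the receptor for Norrin in retinal vessel growth, Rlbp1, a retinoid carrier of the visual cycle, Myo7a, a motor protein of the pigment epithelium, and Rab38, which directs enzymes to melanosomes.

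Total counts were 18094977 to 20029919 in WT libraries, 10903183 to 13456349 in FUN025/+ libraries and 11053535 to 15038383 in FUN025/FUN025 libraries. Every WT library was deeper than every mutant library, no sequencing batch is labelled, and if the WT mice formed a batch of their own, batch and genotype cannot be told apart. The 8 pigment epithelium markers were all detected, and their summed level was 15561 to 19063 CPM in WT, 15470 to 20402 CPM in FUN025/+ and 15253 to 19468 CPM in FUN025/FUN025 eyecups. CPM is a gene's count scaled by the size of its library, so that levels of 1 gene can be compared between libraries. The summed markers of several other tissues varied more between libraries. The 8 striated muscle markers summed to 3178 to 6479 CPM in WT, 1790 to 5122 CPM in FUN025/+ and 2944 to 3844 CPM in FUN025/FUN025 eyecups. The 10 photoreceptor markers summed to 232 to 2288 CPM, 87.8 to 657 CPM and 93.2 to 413 CPM in the same order, and the 4 lens markers summed to 3.67 to 17.1 CPM, 3.66 to 84.4 CPM and 3.77 to 182 CPM. None of these markers was at 0 in all libraries.

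Tmem135, the mutated gene, is read from the minus strand between 89139714 and 89404222 of chromosome 7. Its level was 65.9, 63.7, 66.1 and 59.7 CPM in the 4 WT eyecups, from 66.0 to 86.1 CPM with a median of 74.2 CPM in the FUN025/+ eyecups, and 84.9, 89.1, 93.8, 82.4 and 90.7 CPM in the FUN025/FUN025 eyecups. All FUN025/FUN025 values were above all WT values, while the lowest FUN025/+ value fell within the WT range. By edgeR's quasi-likelihood test, Tmem135 rose by 0.23 on the log2 scale in the heterozygous eyecups (adjusted p = 0.0248) and by 0.47 in the homozygous eyecups (adjusted p = 1.47e-04). The mutation itself cannot be seen in gene counts.

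The linked gene nearest to Tmem135 is Fzd4, which is read in the opposite direction from a start site 132 bases away. The segment between the annotated starts of these genes, chr7:89404223-89404354, is shown because it is the only sequence that separates the mutated gene from its neighbour. It is given on the plus strand, from RefSeq promoter entries on GRCm38.p6, with GC boxes and a CCAAT box in capitals.
Tmem135-Fzd4 segment: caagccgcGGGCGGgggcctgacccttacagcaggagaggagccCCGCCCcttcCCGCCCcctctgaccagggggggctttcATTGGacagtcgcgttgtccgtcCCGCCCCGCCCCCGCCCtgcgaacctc
The segment holds 6 GC boxes (GGGCGG, or CCGCCC on the other strand, 2 of which share a base) and 1 CCAAT box (CCAAT, or ATTGG on the other strand). Of 32851 RefSeq promoters, 27.4% have at least 1 GC box in the 132 bases before the start and 22.6% have at least 1 CCAAT box. These matches describe the letters of the segment and were not measured as binding sites.

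Fzd4 was at 325, 292, 300 and 279 CPM in WT eyecups. It was at 289 to 364 CPM with a median of 353 CPM in FUN025/+ eyecups, and at 304, 356, 373, 343 and 375 CPM in FUN025/FUN025 eyecups. The mutant values were mostly above the WT values, but the groups overlapped in both comparisons. Compared to WT, Fzd4 differed by 0.18 on the log2 scale (95% interval 0.02 to 0.33, adjusted p = 0.124) in FUN025/+ and by 0.23 (0.06 to 0.39, adjusted p = 0.0572) in FUN025/FUN025 eyecups, so neither passed the threshold of 0.05 on the adjusted p. The second of these passed it in 8 of 27 other settings, including DESeq2 (adjusted p = 0.0339).

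The other near neighbours did not pass either. Nox4, an NADPH oxidase that makes hydrogen peroxide, starts 1.89 Mb from Tmem135. It was at 11.7, 11.9, 10.9 and 10.05 CPM in WT eyecups, at 10.5 to 18.1 CPM with a median of 13.4 CPM in FUN025/+ eyecups, and at 12.9, 17.2, 13.6, 13.3 and 13.9 CPM in FUN025/FUN025 eyecups. All FUN025/FUN025 values of Nox4 were above all WT values. In the heterozygous eyecups the log2 difference of Nox4 was 0.27 with an adjusted p of 0.158, and in the homozygous eyecups it was 0.35 (95% interval 0.07 to 0.62) with an adjusted p of 0.0861. The homozygous difference of Nox4 passed the threshold in 3 of 27 other settings. One of these had the mean levels of the muscle and photoreceptor markers as covariates, where the log2 differences were 0.60 (adjusted p = 0.103) and 0.63 (adjusted p = 0.0325).

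Ctsc, which encodes the lysosomal protease cathepsin C, was at 149, 118, 130 and 130 CPM in WT eyecups and at 140 to 163 CPM with a median of 148 CPM in FUN025/+ eyecups. The values overlapped through WT mouse 1. In these eyecups Ctsc differed from WT by 0.19 on the log2 scale (95% interval 0.06 to 0.33, adjusted p = 0.0555), it passed the threshold in 6 of 27 other settings, and without WT mouse 1 the difference was 0.26 with an adjusted p of 0.0117. The homozygous difference of Ctsc was 0.12 with an adjusted p of 0.235, and with the marker covariates the differences of Ctsc were 0.0583 and 0.0134. Rab38 was at 53.7 ± 1.22 CPM in WT (SD, n = 4), 50.0 ± 7.25 CPM in FUN025/+ (SD, n = 6) and 51.8 ± 8.03 CPM in FUN025/FUN025 eyecups (SD, n = 5). Its differences from WT, −0.10 (95% interval −0.33 to 0.13) and −0.05 (−0.29 to 0.19) on the log2 scale, did not pass, and with the marker covariates they were −0.55 (adjusted p = 0.0860) and −0.40 (adjusted p = 0.102). Prss23, a secreted serine protease, had log2 differences of 0.09 (adjusted p = 0.529) and −0.10 (adjusted p = 0.537), and 22.9% of its exon length is overlapped by the antisense gene Prss23os. Hikeshi, a nuclear import carrier of heat shock proteins, had log2 differences of 0.17 (adjusted p = 0.182) and 0.11 (adjusted p = 0.398).

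**Figure D1:**
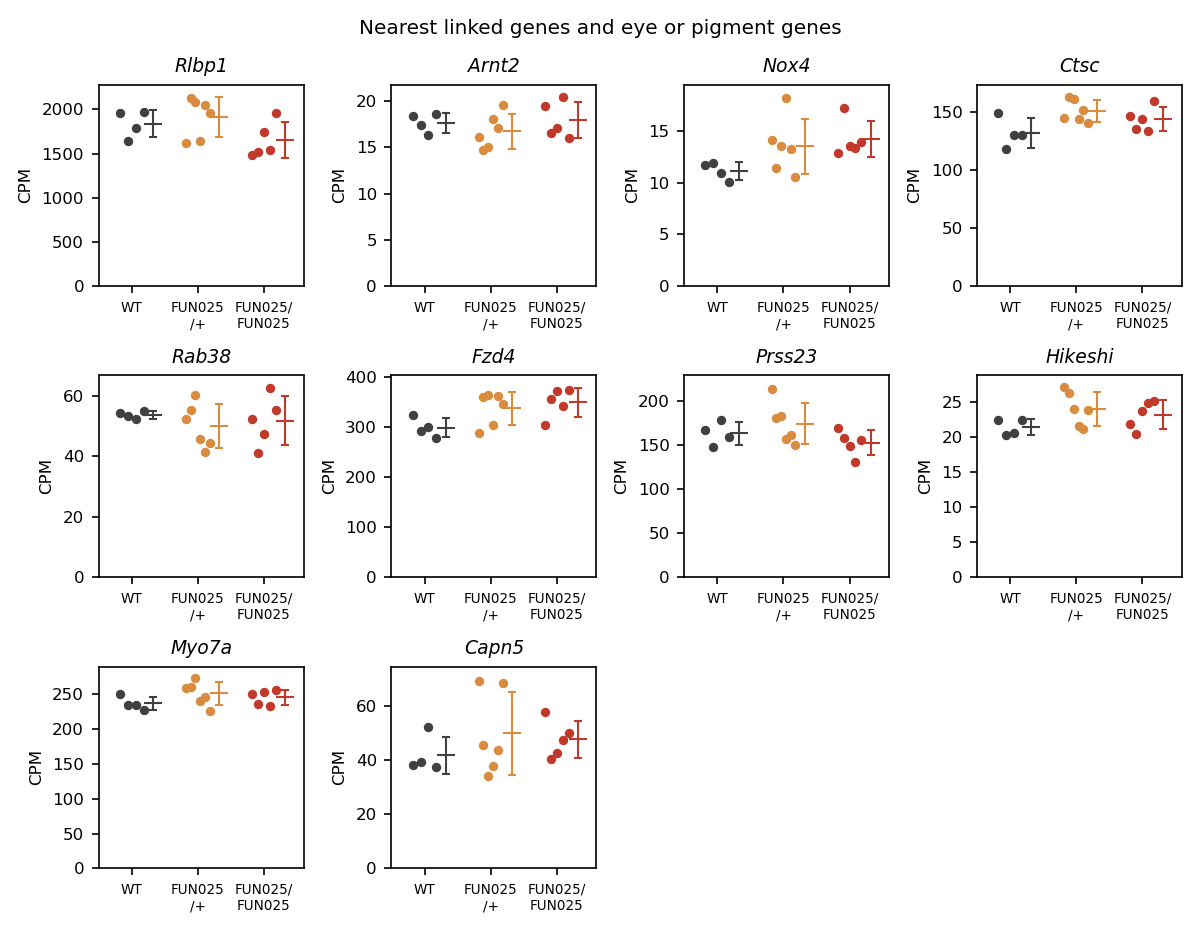
Level in CPM (vertical axis, from 0) of the 3 tested linked genes nearest to Tmem135 on each side (Nox4, Ctsc, Rab38, Fzd4, Prss23 and Hikeshi) and of 4 further eye or pigment genes (Rlbp1, Arnt2, Myo7a and Capn5). Points are mice, and the bars beside them show the mean and SD of 4 WT, 6 FUN025/+ and 5 FUN025/FUN025 mice. The groups overlap in every panel except for FUN025/FUN025 and WT in Nox4.

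Across the window, 109 of the 120 linked genes had enough counts to be tested. The 11 that did not were Ticrr, Mesp2, Slc28a1, Sh3gl3, Cfap161, Grm5, Ccdc81, Ccdc83, Gdpd4, B3gnt6 and Mogat2, with 11 to 116 counts summed over all libraries. Between FUN025/+ and WT eyecups, 8 of the 109 linked genes (7.34%) had an adjusted p under 0.05, where 13.7% of all 18979 genes tested passed. Of these 8, 2 were higher and 6 lower, beside 7.08% and 6.61% of all genes. Among the other 1024 tested protein-coding genes of chromosome 7, 136 genes (13.3%) passed, 23 higher and 113 lower. Between FUN025/FUN025 and WT eyecups, 10 linked genes (9.17%) passed, compared to 14.0% of all genes tested. Of these 10, 2 were higher and 8 lower, beside 7.03% and 7.0% of all genes (1334 and 1329 genes). On the rest of chromosome 7, 151 genes (14.7%) passed, 29 higher and 122 lower. Both comparisons use the same 4 WT mice and are not independent. The shares called among linked genes were thus under those of the rest of the chromosome in both comparisons, and the difference was given no test because genes are not replicates. Without adjustment the shares were close. In FUN025/+ eyecups 28 linked genes (25.7%) had an unadjusted p under 0.05, beside 27.7% of the rest of the chromosome and 28.8% of all genes tested. In FUN025/FUN025 eyecups they were 30 linked genes (27.5%), beside 27.5% of the rest and 28.6% of all genes. Of the 7 genes left out by name, 1 passed in each comparison. This was Ndufc2, which encodes a subunit of complex I of the respiratory chain, with a log2 rise of 0.25 (adjusted p = 0.00549) and 0.27 (adjusted p = 0.00392), and it starts 7.996 Mb from Tmem135.

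The order of the shares changed with 1 of the settings tried. With the mean levels of the muscle and photoreceptor markers as covariates, 3.67% of linked genes and 2.83% of the rest of the chromosome passed in FUN025/+ eyecups, and 8.26% and 6.74% in FUN025/FUN025 eyecups, so that the linked genes had the higher share. In FUN025/FUN025 eyecups 9 linked genes passed with these covariates, and 4 of the 10 named above were among them (Ramac, Polg, Lrrc32 and Serpinh1). With 1 mouse left out at a time, the share of linked genes minus that of the rest was −5.81 to −2.15 percentage points in FUN025/+ eyecups (−5.94 with all mice) and −6.49 to −1.31 in FUN025/FUN025 eyecups (−5.57 with all mice). The heterozygous difference was smallest without FUN025/+ mouse 1 (−2.15) or 3 (−2.62) and the homozygous difference without WT mouse 3 (−1.31) or 1 (−1.75).

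The medians of the absolute change were close to each other. The median absolute log2 fold change was 0.14 for linked genes, 0.14 for the rest of chromosome 7 and 0.14 for all genes tested in FUN025/+ eyecups, and 0.13, 0.14 and 0.15 in FUN025/FUN025 eyecups. The median signed change of the linked genes was 0.00 and −0.03, beside −0.06 and −0.07 on the rest of the chromosome. Of the 109 linked genes, 54 and 46 had a positive log2 fold change in the heterozygous and homozygous eyecups. For 82 and 81 of them the whole 95% interval lay within 0.5 of 0 on the log2 scale.

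By non-overlap of the CPM values, 6 linked genes (5.50%) separated FUN025/+ from WT eyecups, where 10.9% of all genes did, and 11 linked genes (10.1%) separated FUN025/FUN025 from WT eyecups, where 14.8% of all genes did. The median coefficient of variation of the linked genes between mice was 8.33% in WT, 9.86% in FUN025/+ and 9.33% in FUN025/FUN025 eyecups. It was 10.03%, 10.9% and 10.2% over all genes tested.

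The calls lay far from Tmem135. Of the 29 linked genes that start within 5 Mb, 26 were tested, and edgeR's quasi-likelihood test called 0 of them in either comparison with WT, with 5 (19.2%) and 4 (15.4%) of them under 0.05 before adjustment, where 28.8% and 28.6% of all genes were. DESeq2 called 1 of them in FUN025/+ eyecups (Ctsc) and 1 in FUN025/FUN025 eyecups (Fzd4), and limma voom called 1 in FUN025/+ eyecups (Tmem126a). For 22 of these 26 genes the 95% interval lay within 0.5 of 0 on the log2 scale in each comparison. From 5 to 7.5 Mb, 1 of 18 genes passed in each comparison. From 7.5 to 10 Mb, 7 of 65 genes (10.8%) passed in FUN025/+ eyecups and 9 of 65 (13.8%) in FUN025/FUN025 eyecups. Beyond the window, 4 of 109 genes at 10 to 20 Mb passed in FUN025/+ and 10 of 109 in FUN025/FUN025 eyecups, and over 40 Mb away the shares were 15.5% and 16.6% of 658 genes.

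**Figure D2:**
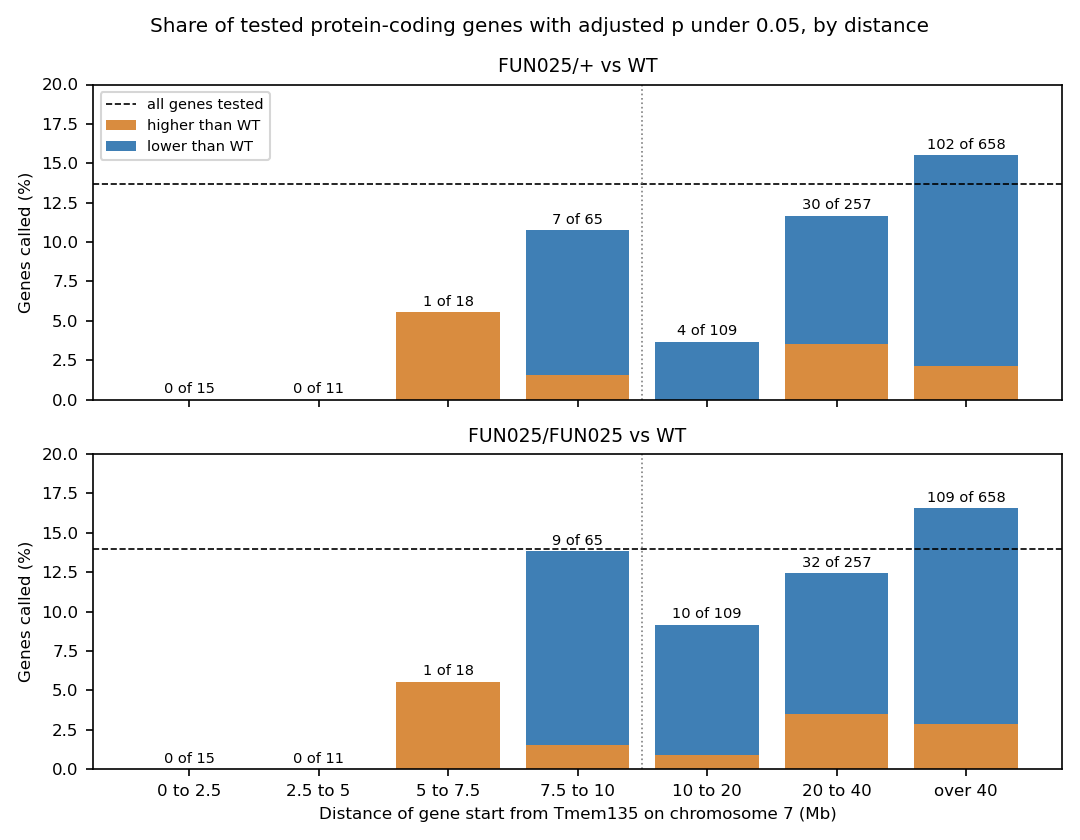
Percentage of tested protein-coding genes of chromosome 7 with an adjusted p under 0.05 (vertical axis) by distance of the gene start from Tmem135 in Mb (horizontal axis), for FUN025/+ (top) and FUN025/FUN025 (bottom) compared to WT. Bars are split into genes higher and lower than WT, labels give the counts, the dashed line is the share of all genes tested (13.7% and 14.0%), and the dotted line marks the end of the 10 Mb window. No bar stands within 5 Mb.

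In all, 11 linked genes were called in at least 1 of the 2 mutant genotypes, and 7 of them in both. Of the 11, 7 lie on the centromere side and 4 on the telomere side, the nearest of them (Ramac) 7.38 Mb from Tmem135. The mean of FUN025/+ eyecups lay between those of WT and FUN025/FUN025 eyecups for 7 of the 11, and for 43 of the 109 tested linked genes. The shares of all genes tested that were called in either or both genotypes, or had such a mean, were not counted. These counts therefore only describe the linked genes, and in the single comparisons 13.7% and 14.0% of all genes were called.

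**Figure D3:**
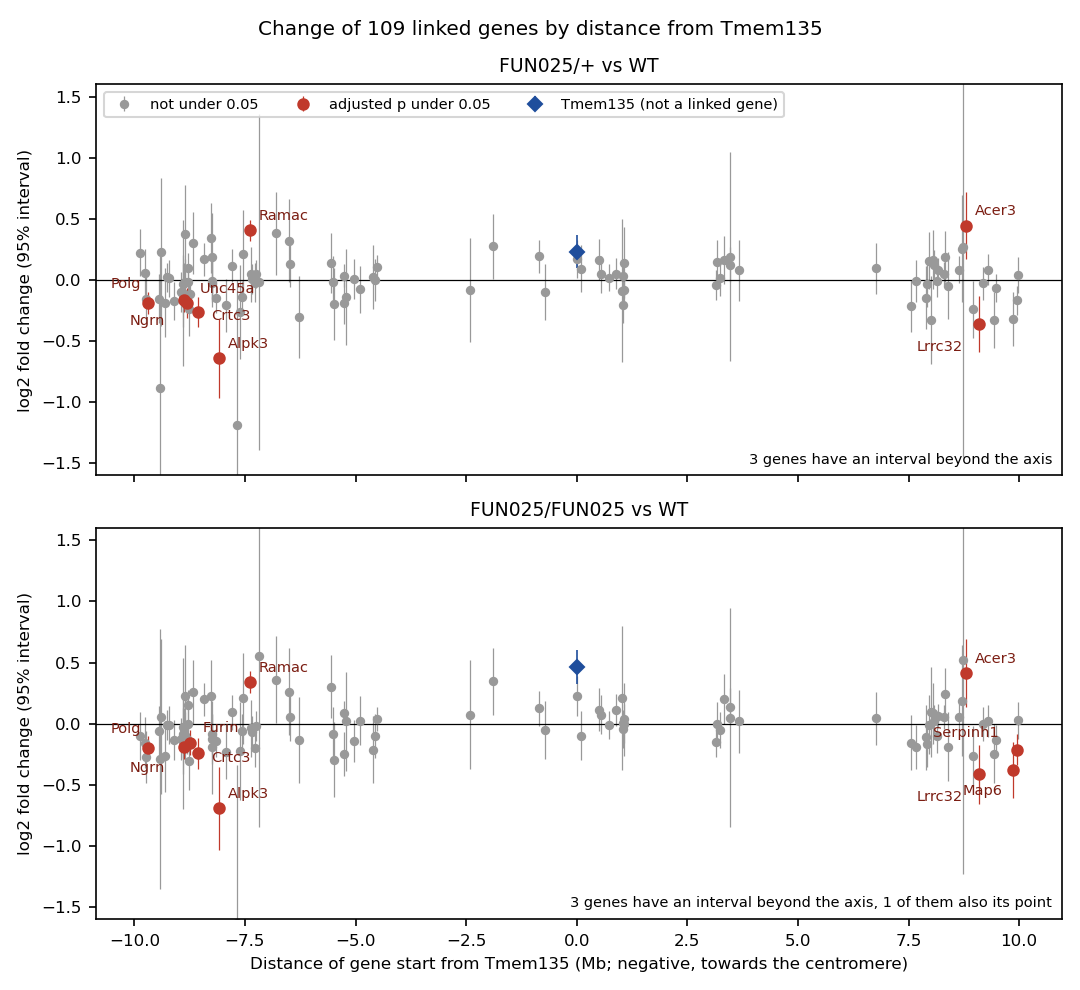
Log2 fold change of the 109 tested linked genes compared to WT (vertical axis, with 95% intervals) against the distance of their start from Tmem135 in Mb (horizontal axis, negative towards the centromere). Red points have an adjusted p under 0.05, 8 in the upper panel (FUN025/+) and 10 in the lower (FUN025/FUN025), the nearest of them at 7.38 Mb, and the blue diamond is Tmem135 at 0.23 and 0.47.

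Ramac, the activating subunit of the enzyme that methylates the mRNA cap, had the smallest p of the linked genes. It was at 38.7, 41.6, 40.8 and 39.6 CPM in WT eyecups. It was at 51.0 to 55.6 CPM with a median of 53.5 CPM in FUN025/+ eyecups, and at 51.5, 50.3, 50.1, 51.7 and 50.7 CPM in FUN025/FUN025 eyecups. Every mutant value was above every WT value, and the FUN025/+ and FUN025/FUN025 values overlapped. Ramac rose by 0.41 ± 0.04 on the log2 scale in the heterozygous eyecups (SE, adjusted p = 3.51e-06) and by 0.34 ± 0.04 in the homozygous eyecups (SE, adjusted p = 3.61e-05), and it passed the threshold in all 27 other settings. Of its exon sequence, 58.9% of the stretches of 31 bases also occur in other genes, so its counts are uncertain where the counting could split reads between copies. One of these copies, the protein-coding gene Gm10767 on chromosome 13, was at 22.9 ± 3.12, 21.9 ± 2.20 and 22.2 ± 2.26 CPM in WT, FUN025/+ and FUN025/FUN025 eyecups (SD, n = 4, 6 and 5). Its log2 differences from WT were −0.07 (adjusted p = 0.688) and −0.04 (adjusted p = 0.815).

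Linked genes were grouped by role in lists of at most 17 tested genes, whose counts are read against the 13.7% and 14.0% of all genes called. The median log2 difference of all genes tested was −0.00244 in FUN025/+ and −0.00704 in FUN025/FUN025 eyecups.

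Of the 5 linked genes listed for mitochondrial proteins, 2 passed in each comparison, both lower, and the list medians were −0.19 and −0.16. Ndufc2, left out of the linked genes by name, was higher in both. Polg, the catalytic subunit of the mitochondrial DNA polymerase, was at 76.4, 75.4, 83.0 and 82.7 CPM in WT eyecups. It was at 64.4 to 72.0 CPM with a median of 70.7 CPM in FUN025/+ eyecups and at 69.8, 69.8, 67.2, 70.4 and 68.3 CPM in FUN025/FUN025 eyecups. All mutant values were below all WT values. Polg fell by 0.19 (adjusted p = 0.00901) and by 0.20 (adjusted p = 0.00786) on the log2 scale, and in all 27 other settings of both comparisons. With the marker covariates it fell by 0.32 and by 0.30. Exons of Fanci on the other strand overlap 8.57% of its exon length.

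Ngrn, required for assembly of the mitochondrial ribosome, was at 38.0, 37.5, 36.7 and 39.0 CPM in WT eyecups. It was at 32.7 to 34.5 CPM with a median of 34.0 CPM in FUN025/+ eyecups, and at 30.9, 34.0, 32.3, 33.6 and 34.7 CPM in FUN025/FUN025 eyecups. Again no mutant value reached the WT range. Ngrn fell by 0.16 (adjusted p = 0.0262) and by 0.19 (adjusted p = 0.0130) on the log2 scale, and its call in FUN025/+ eyecups was lost without WT mouse 2 (adjusted p = 0.0644) or WT mouse 4 (adjusted p = 0.0829) as well as in a fit that blocked on the labels' replicate number (adjusted p = 0.0641). Both calls of Ngrn were lost with the marker covariates, where the log2 differences were −0.15 (adjusted p = 0.409) and −0.19 (adjusted p = 0.177), and without the low-count filter (adjusted p = 0.104 and 0.0634). The other 3 genes of this list, Nars2, Tmem126a and Tmem126b, did not pass.

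Of 17 linked genes that act on chromatin, transcription or RNA, 16 were tested and 1 passed in each comparison (6.25%), with list medians of 0.02 in both. This was Crtc3, a coactivator of CREB, at 47.5, 46.8, 48.5 and 45.2 CPM in WT eyecups. It was at 35.8 to 41.9 CPM with a median of 39.98 CPM in FUN025/+ eyecups, and at 40.5, 37.7, 40.6, 42.8 and 36.8 CPM in FUN025/FUN025 eyecups. The mutant values lay below the WT values without overlap. Crtc3 fell by 0.26 (adjusted p = 0.00549) and by 0.24 (adjusted p = 0.0113) on the log2 scale, and with the marker covariates its log2 differences were −0.26 (adjusted p = 0.206) and −0.23 (adjusted p = 0.141).

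Alpk3, a kinase of heart and skeletal muscle that is in none of the gene lists, had the largest change among the called genes. It was at 18.4, 14.4, 14.96 and 22.7 CPM in WT eyecups. It was at 8.59 to 16.0 CPM with a median of 10.6 CPM in FUN025/+ eyecups, and at 10.9, 10.1, 12.9, 10.3 and 10.1 CPM in FUN025/FUN025 eyecups. The FUN025/+ values overlapped those of WT and the FUN025/FUN025 values did not. Alpk3 fell by 0.64 (adjusted p = 0.0108) and by 0.69 (adjusted p = 0.00864) on the log2 scale. The WT eyecup with the highest Alpk3 level, that of WT mouse 4, also had the highest sum of striated muscle markers at 6479 CPM, and the FUN025/+ eyecup with 16.0 CPM had the highest sum of its group at 5122 CPM. The FUN025/FUN025 group went the other way, since mouse 5 had its highest sum at 3844 CPM and its lowest Alpk3 level at 10.05 CPM. Of the 8 muscle markers, 1 was lower than WT in each mutant genotype. Its log2 differences with the marker levels as covariates were −0.39 (adjusted p = 0.303) and −0.51 (adjusted p = 0.0834). Fewer muscle cells and less RNA per cell cannot be told apart in these samples. Without WT mouse 4 the heterozygous difference of Alpk3 was −0.50 and did not pass, with an adjusted p of 0.0549.

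Secreted proteins, matrix proteins and proteases were encoded by 12 linked genes, all of them tested. In FUN025/+ eyecups 1 of them passed and in FUN025/FUN025 eyecups 3 passed, all lower, where 6.61% and 7.0% of all genes were called lower. The list medians were −0.13 in both comparisons. Serpinh1, the collagen chaperone HSP47, was at 308, 305, 341 and 341 CPM in WT eyecups, at 263 to 309 CPM with a median of 290 CPM in FUN025/+ eyecups, and at 298, 292, 264, 285 and 259 CPM in FUN025/FUN025 eyecups. The homozygous values were below the WT values and the heterozygous values overlapped them. Serpinh1 fell by 0.21 (adjusted p = 0.0229) on the log2 scale in FUN025/FUN025 eyecups and had a log2 difference of −0.17 (adjusted p = 0.0581) in FUN025/+ eyecups. The heterozygous difference passed with DESeq2 (adjusted p = 0.0338) and with Xist as a covariate (adjusted p = 0.0271). The homozygous call was lost without FUN025/FUN025 mouse 3 or 5 or without WT mouse 3 or 4, with an adjusted p of up to 0.0851, and with the replicate block (adjusted p = 0.0563). With the marker covariates the log2 differences of Serpinh1 were −0.35 in each genotype, with an adjusted p of 0.0606 in FUN025/+ and 0.0159 in FUN025/FUN025 eyecups. The summed level of 5 fibroblast markers, which include collagen genes, was 4664 to 6722 CPM in WT and 3976 to 5824 CPM in FUN025/FUN025 eyecups. Its part in the change of Serpinh1 was not tested.

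Lrrc32, which holds latent TGF-beta at the cell surface, was at 29.4, 25.0, 31.8 and 38.4 CPM in WT eyecups. It was at 21.4 to 27.1 CPM with a median of 24.2 CPM in FUN025/+ eyecups, and at 26.0, 21.1, 22.1, 26.3 and 21.0 CPM in FUN025/FUN025 eyecups. The lowest WT value lay within both mutant ranges. Lrrc32 fell by 0.36 (adjusted p = 0.0349) and by 0.42 (adjusted p = 0.0215) on the log2 scale, and both calls were lost without WT mouse 3 or 4, with an adjusted p of up to 0.162 in FUN025/+ and 0.0951 in FUN025/FUN025 eyecups. The heterozygous call was also lost without FUN025/+ mouse 4, 5 or 6 (adjusted p of up to 0.0692) and the homozygous call without FUN025/FUN025 mouse 2 or 5 (adjusted p of up to 0.0557). The replicate block ended both calls (adjusted p = 0.134 and 0.0521), and the heterozygous call was also lost with only the 2 genotypes compared or with libraries thinned to the shallowest. With the marker covariates Lrrc32 fell by 0.78 (adjusted p = 0.0229) and by 0.75 (adjusted p = 0.00615). Lrrc32 is also the 1 called gene among 10 tested genes for signalling receptors and adaptors, with list medians of −0.04 and −0.16. The 6 endothelial markers, of which 2 in FUN025/+ and 4 in FUN025/FUN025 eyecups were lower than WT, summed to 838 to 974 CPM in WT, 647 to 910 CPM in FUN025/+ and 590 to 746 CPM in FUN025/FUN025 eyecups. The part of endothelial RNA in the change of Lrrc32 was not tested.

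Furin, a protease that activates secreted precursors, was at 124, 127, 138 and 132 CPM in WT eyecups, at 110 to 126 CPM with a median of 121 CPM in FUN025/+ eyecups, and at 120, 121, 115, 112 and 116 CPM in FUN025/FUN025 eyecups. It passed in the homozygous eyecups alone, with log2 differences of −0.12 (adjusted p = 0.0976) and −0.16 (adjusted p = 0.0394). The call was lost in 7 of the 15 fits that leave out 1 mouse, which were those without WT mouse 2, 3 or 4, FUN025/+ mouse 4 or FUN025/FUN025 mouse 3, 4 or 5, with an adjusted p of up to 0.155. It was also lost in 5 other settings, with an adjusted p of 0.0544 to 0.136, the highest with the marker covariates.

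Acer3, an alkaline ceramidase, was the 1 called gene (8.33%) of 12 tested genes of lipid and small-molecule metabolism, whose medians were −0.00619 and −0.0465. It was at 22.5, 24.3, 27.8 and 21.0 CPM in WT eyecups. It was at 26.7 to 40.4 CPM with a median of 30.2 CPM in FUN025/+ eyecups, and at 36.4, 30.4, 25.1, 33.9 and 33.6 CPM in FUN025/FUN025 eyecups. The groups overlapped through WT mouse 3 and the lowest mutant values. Acer3 rose by 0.44 (adjusted p = 0.0311) and by 0.41 (adjusted p = 0.0488) on the log2 scale, and the calls were lost in 5 and 10 of the 15 fits that leave out 1 mouse, with an adjusted p of up to 0.109 and 0.144. With the marker covariates the log2 differences of Acer3 were 0.19 (adjusted p = 0.742) and 0.21 (adjusted p = 0.627). Both calls were also lost with the replicate block (adjusted p = 0.0961 and 0.0664), with thinned libraries and without the low-count filter, and the homozygous call with Xist as a covariate. Among the fits without 1 mouse, both calls needed WT mice 1, 2 and 4, the first also FUN025/+ mice 1 and 6, and the second FUN025/+ mice 2, 4 and 5 and FUN025/FUN025 mice 1, 2, 4 and 5.

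Among 17 tested genes of membrane traffic and the cytoskeleton, 1 passed in each comparison (5.88%), and the medians were 0.01 and −0.01. Unc45a, a chaperone of myosin, was at 80.3, 81.7, 89.3 and 91.0 CPM in WT eyecups, at 73.7 to 76.9 CPM with a median of 74.5 CPM in FUN025/+ eyecups, and at 84.4, 69.5, 72.4, 82.5 and 84.0 CPM in FUN025/FUN025 eyecups. Its heterozygous values were the most alike and lay below all WT values, while 3 homozygous values lay within the WT range and 2 lay below the heterozygous range. Unc45a fell by 0.19 on the log2 scale in FUN025/+ eyecups, with an adjusted p of 0.0351. Its homozygous difference of −0.12 (adjusted p = 0.181) and the difference between the mutant genotypes, 0.07, did not pass. The heterozygous call was lost without WT mouse 3 or 4 or any 1 of FUN025/+ mice 1 to 5, with an adjusted p of up to 0.123, and with the replicate block (adjusted p = 0.0501), with protein-coding genes alone or with thinned libraries. With the marker covariates Unc45a fell by 0.39 (adjusted p = 0.0215) and by 0.29 (adjusted p = 0.0279), so that the homozygous difference passed as well.

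Map6, which stabilises microtubules in neurons, was at 20.7, 21.2, 15.9 and 19.4 CPM in WT eyecups, at 13.1 to 18.3 CPM with a median of 15.5 CPM in FUN025/+ eyecups, and at 14.2, 15.3, 17.2, 12.8 and 14.7 CPM in FUN025/FUN025 eyecups. The groups overlapped through WT mouse 3. Its log2 differences were −0.32 with an adjusted p of 0.0521 in FUN025/+ and −0.38 with an adjusted p of 0.0288 in FUN025/FUN025 eyecups, and the homozygous call was lost with the marker covariates, where the differences were −0.16 (adjusted p = 0.724) and −0.25 (adjusted p = 0.417), and with thinned libraries. It was also lost without WT mouse 1, 2 or 4 or FUN025/FUN025 mouse 1, 4 or 5, with an adjusted p of up to 0.0910. Map6 was also the 1 called gene in FUN025/FUN025 eyecups among 6 tested genes of synapses and neurons. In FUN025/+ eyecups Map6 was the 1 gene of this list with an unadjusted p under 0.05, and its difference passed the adjusted threshold in 8 of 27 other settings, including DESeq2 (adjusted p = 0.0421). Of 5 tested genes for DNA replication, repair and mitosis, 1 passed in each comparison, which was Polg again. The medians were 0.12 and 0.04 for the synapse list and 0.19 and 0.05 for this list.

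**Figure D4:**
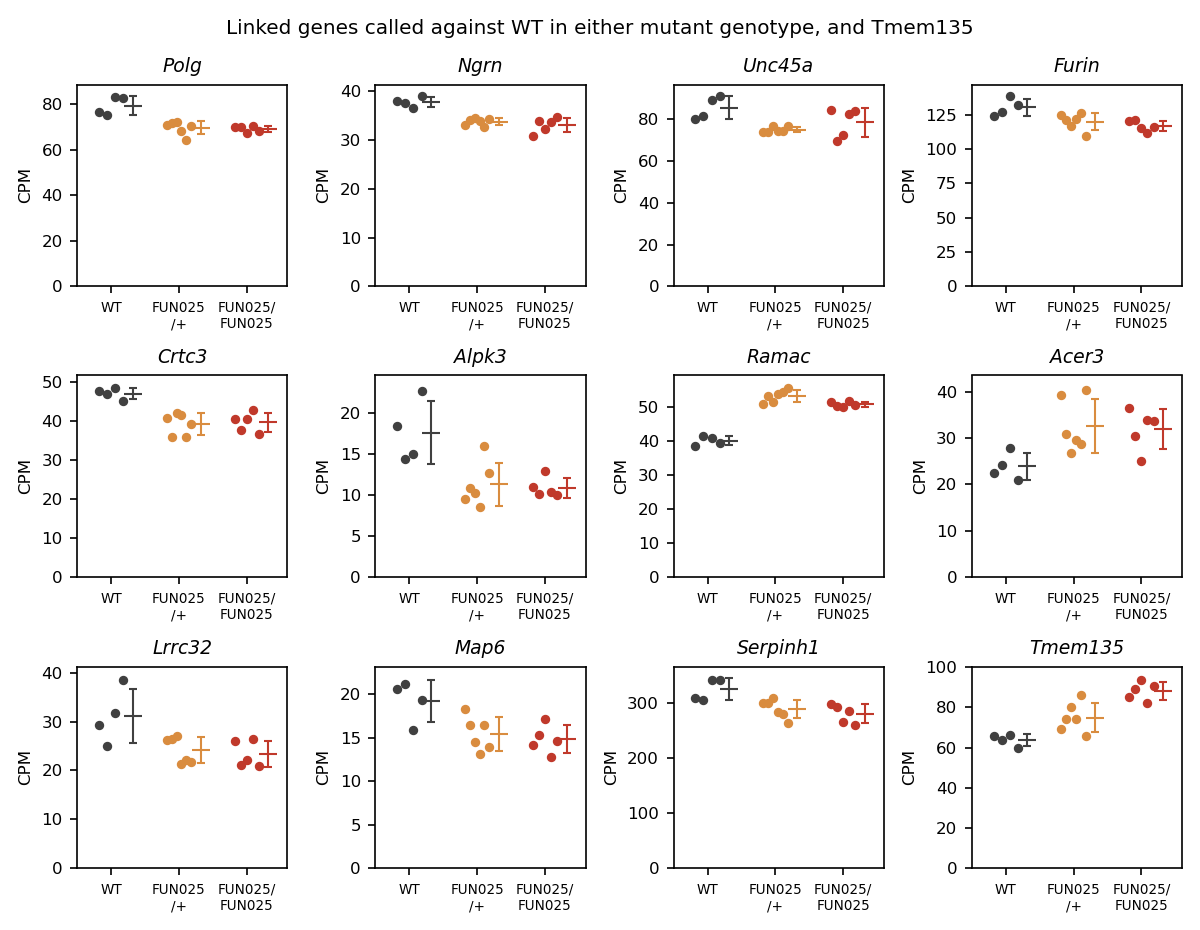
Level in CPM (vertical axis, from 0) of the 11 linked genes called in FUN025/+ or FUN025/FUN025 eyecups compared to WT, and of Tmem135. Points are mice, and the bars beside them show the mean and SD of 4 WT, 6 FUN025/+ and 5 FUN025/FUN025 mice. Ramac, Polg, Ngrn and Crtc3 separate WT from both mutant genotypes without overlap, and each of the other 7 called genes overlaps WT in at least 1 mutant genotype.

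None of the 7 linked genes with known roles in the eye or in pigment cells passed in either comparison, by edgeR's quasi-likelihood test. In each, 5 of the 7 had a positive log2 fold change, with list medians of 0.09 and 0.05, where 9390 and 9217 of all 18979 genes were positive. With the marker covariates the signs of Rlbp1, Arnt2, Myo7a and Capn5 turned in FUN025/+ eyecups, and those of Myo7a and Capn5 in FUN025/FUN025 eyecups. Rlbp1 was at 1841 ± 158 CPM in WT, 1914 ± 225 CPM in FUN025/+ and 1652 ± 202 CPM in FUN025/FUN025 eyecups (SD, n = 4, 6 and 5). Its log2 differences from WT were 0.06 (95% interval −0.14 to 0.26) and −0.16 (−0.36 to 0.05). Myo7a had the narrowest intervals of the list, with log2 differences of 0.09 (−0.03 to 0.20) and 0.05 (−0.06 to 0.17). Capn5, a calpain expressed in the retina, had the widest intervals of the list. It was at 41.7 ± 6.88, 49.8 ± 15.3 and 47.6 ± 6.81 CPM, and its log2 differences were 0.26 (−0.18 to 0.69) and 0.19 (−0.26 to 0.64). Arnt2, a partner of basic helix-loop-helix factors, had log2 differences of −0.08 (−0.27 to 0.12) and 0.02 (−0.18 to 0.22). At an unadjusted p under 0.05, Fzd4 and Nox4 of this list passed in both comparisons, DESeq2 called Fzd4 in the homozygous eyecups alone and limma voom called 0 of the 7.

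Between FUN025/FUN025 and FUN025/+ eyecups, edgeR's quasi-likelihood test called 0 of the 109 linked genes, where 0.522% of all genes passed. Of the linked genes, 8 (7.34%) had an unadjusted p under 0.05, where 6.22% of all genes did, limma voom called 0 and DESeq2 called 1. The gene that DESeq2 called, named here after its values were seen, was Abhd2, which encodes a lipid hydrolase and differed by −0.32 on the log2 scale, with an adjusted p of 0.0252 by DESeq2 and 0.146 by edgeR. The CPM values of the mutant genotypes did not overlap for 0 linked genes, where 1.13% of all genes were without overlap. On the rest of chromosome 7, 2 of 1024 genes passed, both higher. The median absolute log2 fold change between the mutant genotypes was 0.07 for linked genes and 0.06 for the rest of the chromosome.

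A linear trend on the number of FUN025 alleles called 8 linked genes (7.34%), compared to 8.92% of all genes and 9.08% of the rest of chromosome 7. Ramac was higher, where 4.30% of all genes were, and Polg, Ngrn, Crtc3, Alpk3, Lrrc32, Map6 and Serpinh1 were lower, where 4.62% of all genes were. All 8 are among the 11 called compared to WT. The differences of Ramac and Crtc3 from WT were larger in FUN025/+ (0.41 and −0.26) than in FUN025/FUN025 eyecups (0.34 and −0.24). Their trend calls therefore do not show a change that grows with each allele. The trend call of Ramac was lost without WT mouse 1, 2, 3 or 4 (adjusted p of 0.0584 to 0.0824). Tmem135 itself had a log2 change of 0.23 per allele (adjusted p = 3.86e-04), more than the 0.16 of Ramac (adjusted p = 0.0240), and the next neighbour Fzd4 had 0.11 per allele (adjusted p = 0.0822). Polg changed by −0.10 and Alpk3 by −0.34 per allele. The trend count was the least stable, since it was 0 without WT mouse 1, without WT mouse 4, with the marker covariates or with the replicate block. The share of the rest of chromosome 7 fell as well in these fits, to 5.96%, 2.93%, 1.66% and 3.22% in the same order.

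Tmem135 and Fzd4 are 1 of 9 pairs in the window whose starts lie within 1000 bases and face away from each other, counting the genes left out by name. Both genes were tested in all 9 pairs. The pair of Tmem135 and Fzd4 was the 1 pair in which a gene passed, through Tmem135. Its members had log2 differences of the same sign, 0.23 and 0.18 in FUN025/+ and 0.47 and 0.23 in FUN025/FUN025 eyecups, as did the members of 5 of the 9 pairs in FUN025/+ and 6 of the 9 in FUN025/FUN025 eyecups, this pair included. In the pair of Tlnrd1 and Mesd the differences in FUN025/FUN025 eyecups were −0.25 (adjusted p = 0.0621) and 0.09 (adjusted p = 0.220).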

How the data were processed

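RNA from the posterior eyecups of 15 mice was sequenced by the authors from NEBNext libraries. They deposited, for each library, whole-number read counts of 55421 Ensembl genes without normalization. The submitters' processing notes name FastQC 0.11.8, Trimmomatic 0.39, HISAT2 2.1.0, SAMtools, featureCounts 2.0.0 and GRCm38. How strand and reads with several matches were counted is not given in the sources used here. Positions came from GENCODE M21, which lacks 181 of the listed genes. Groups came from the sample titles.

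Removal of the 15% of genes with the lowest variance and filterByExpr left 18979 genes. All were tested with TMM scaling and the quasi-likelihood test of edgeR 4.0.16 in 1 fit of 15 mice, with Benjamini-Hochberg adjustment and a threshold of 0.05. The fit was tested on simulated data. R 4.3.3, limma 3.58.1, DESeq2 1.42.0 and Python 3.11.15 were used. Log2 fold changes are edgeR's, with a prior count of 2 for log2 CPM covariates, and CPM values use the TMM-scaled totals. Intervals of log2 differences come from this fit and include the spread between mice. A floor of 3 counts, which covers counting error only, was 0.150 CPM in the deepest library.

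The linked genes and 10 gene lists were chosen with earlier results of these data known. Of the 120 linked genes, 34 are in no list. The list of olfactory and vomeronasal receptors holds 0 linked genes. Named genes are the 3 tested linked genes nearest to Tmem135 on each side, those called between the mutant genotypes, up to 8 rises and 8 falls per comparison with WT at a mean of at least 1 CPM, up to 10 of the allele trend, and the eye and pigment list. Mfge8 of that list starts outside the window. Exon sequence was compared between genes by stretches of 31 bases, and the share that also occurs elsewhere was over 20% in 9 linked genes. Exons of another gene overlap 43 linked genes. Promoters of 100 linked genes matched the RefSeq table by symbol.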

Additional observations from a re-analysis of the deposited data

Results flagged for a closer look

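Among 66 tests for a single library far from its group, over the named genes and 3 genotypes, 2 found one, and about 1 in 20 groups is expected to by chance. Nox4 was at 17.2 CPM in FUN025/FUN025 mouse 2, where the other 4 homozygous mice were at 12.9 to 13.9 CPM. Capn5 was at 52.0 CPM in WT mouse 3, where the other 3 WT mice were at 37.3 to 39.4 CPM.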

How the results depend on the processing

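With 1 mouse left out at a time, 3 to 12 linked genes were called in FUN025/+ eyecups (3 without WT mouse 4). In FUN025/FUN025 eyecups 5 to 13 were called (5 without WT mouse 4 or without FUN025/FUN025 mouse 5). The rest of chromosome 7 also lost calls without WT mouse 4, where 7.52% of its genes passed in each comparison. Its shares with all mice were 13.3% (FUN025/+) and 14.7% (FUN025/FUN025). Without FUN025/FUN025 mouse 5 its homozygous share was 11.0%. Without WT mouse 1, where the linked counts were highest, its shares were 14.2% (FUN025/+) and 13.7% (FUN025/FUN025). Leaving out 1 mouse gave 0 to 1 linked genes between the mutant genotypes (1 without FUN025/+ mouse 4) and 0 to 9 for the allele trend. The trend count was 0 without WT mouse 1 or 4, 1 without WT mouse 3, 2 without WT mouse 2, 5 without FUN025/FUN025 mouse 2 and 4 without FUN025/FUN025 mouse 5. The trend share of the rest of chromosome 7 was 2.93% to 6.35% in these fits, where it was 9.08% with all mice. The called genes within 5 Mb of Tmem135 in FUN025/FUN025 eyecups numbered 0 to 2 (2 without FUN025/+ mouse 4 or WT mouse 1, and 1 without FUN025/+ mouse 1 or FUN025/FUN025 mouse 1). The share of linked genes called minus that of the rest of chromosome 7, −5.57 percentage points in FUN025/FUN025 eyecups, was −6.49 to −1.31 in these fits, with −1.31 without WT mouse 3 and −1.75 without WT mouse 1. The cause was not tested.

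With the muscle and photoreceptor covariates the counts were 4 in FUN025/+ eyecups, 9 in FUN025/FUN025 eyecups (4 of them called without the covariates) and 0 for the trend, and the difference of the shares turned to 1.52 percentage points in FUN025/FUN025 and 0.84 in FUN025/+ eyecups. Of the rest of chromosome 7, these covariates left 2.83% called in FUN025/+ eyecups, 6.74% in FUN025/FUN025 eyecups and 1.66% for the trend. The same covariates turned the sign of differences that had not passed: Rlbp1 −0.0563, Arnt2 0.0899, Prss23 −0.20, Hikeshi −0.0171, Myo7a −0.0160 and Capn5 −0.0577 in FUN025/+ eyecups, and Hikeshi −0.0274, Myo7a −0.0228 and Capn5 −0.0678 in FUN025/FUN025 eyecups. In FUN025/FUN025 eyecups they moved Prss23 to −0.31, Rlbp1 to −0.26 and Arnt2 to 0.15. Signs near 0 also turned in FUN025/FUN025 eyecups with single mice left out, for Arnt2 (−0.0281 to 0.0591) and Rab38 (−0.13 to 0.0195). The heterozygous share difference was −5.81 to −2.15 with 1 mouse left out.

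In FUN025/FUN025 eyecups the difference of the shares was −3.60 with Xist as a covariate, −3.48 without the low-count filter and −2.41 with protein-coding genes alone. It was −3.72 with libraries thinned to the shallowest and −2.51 with only the 2 genotypes compared. The FUN025/+ differences were −3.64, −4.23, −4.09, −5.73 and −3.25 in the same order. With Xist, used in place of a sex label, 12 linked genes (11.0%) were called in FUN025/+ eyecups, beside 14.6% of the rest of chromosome 7. In FUN025/FUN025 eyecups they were 13 (11.9%), beside 15.5%. A move was counted where it passed 1 SD of the fits that leave out a mouse. Within 5 Mb, 2 genes were called in FUN025/FUN025 eyecups with only the 2 genotypes compared and 1 each with DESeq2, Xist, the covariates or protein-coding genes alone. DESeq2 called 1 linked gene between the mutant genotypes. The trend called 5 without the low-count filter, 4 with protein-coding genes alone and 4 with thinned libraries. A window of 5 Mb, with 26 tested genes, held 0 called genes in either comparison with WT and for the trend. One of 20 Mb, with 218 tested genes, held 12 in FUN025/+ eyecups, 20 in FUN025/FUN025 eyecups and 13 for the trend. The window of 10 Mb, with 109 tested genes, held 8, 10 and 8 in the same order.

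The labels do not say whether mice with the same replicate number are paired. The 13 same-numbered pairs correlated at −0.38 to 0.13, and differently numbered pairs at −0.28 to 0.37. With that number as a replicate block, 7 linked genes were called in each comparison with WT and 0 in the trend, the share difference was −5.49, and the log2 difference of Rlbp1 in FUN025/+ eyecups turned to −0.00403. Depth limits the 11 untested genes, for which no change could be detected.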
